A study of Capra hircus with 3 samples.

Results

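Skeletal muscle lineage cells were described in the dorsal skin of goat fetuses at embryonic day 60 (E60). A cell counted as a member when at least 3 of 12 muscle genes (MYOD1, MYF5, MYOG, DES, ACTC1, MYH3, MYH8, TNNT1, TNNC1, PAX7, KLHL41 and CHRNA1) had a value above 0, and 71 of the 6849 E60 cells did so, of 20676 cells in all. This was 1.04% of the E60 cells (exact binomial 95% interval 0.810% to 1.31%). The intervals given here cover counting error only. The members were chosen by the deposited values of these genes, so the levels of the 12 genes describe the cells and support nothing. Back skin of Capra hircus, the goat, of the Northern Shaanxi White Cashmere breed, was sampled at E60, E90 and E120 and profiled by droplet-based single-cell RNA sequencing that reads the 3′ ends of transcripts. Each stage was 1 library, in which cells of at least 2 fetuses had been pooled before barcoding, so fetuses cannot be told apart and no statistical test was possible. E60 and E90 skin was dissociated whole with collagenase IV, whereas at E120 hair follicles were dissected from the skin first and dissociated with TrypLE Express. No stage carried a treatment or a genetic change. The design text counts 19705 cells over the 3 stages, fewer than the table, and the filter behind that number is not given in the sources used here. Whether every member was among those cells is therefore unknown.

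In the embryo, muscle precursors are marked by the paired-box factor PAX7 and the early myogenic factor MYF5. MYOD1 commits such cells to the muscle fate, and MYOG accompanies their exit from the cell cycle and the onset of contractile gene expression. Differentiating myoblasts then fuse into fibres, whose sarcomeres at this age contain embryonic myosin heavy chain (MYH3), perinatal myosin heavy chain (MYH8) and cardiac alpha-actin (ACTC1), an early isoform in skeletal muscle as well. In the dorsal skin of many mammals a thin muscle sheet, the panniculus carnosus, lies below the dermis.

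Members were counted in unique molecular identifiers (UMIs), which tag single captured RNA molecules. The members held 694473 UMIs in all, with a median of 9063 per cell (6286 to 21935), against a median of 8576 in the other 6778 E60 cells. The median share of mitochondrial counts was 6.02% in members and 4.51% in the other cells. The part of depth and of RNA quality in the results was not tested. Of the cell barcodes, 9 were shared between E60 and E90 and 10 between E60 and E120, and 0 of them belonged to a member.

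The 71 cells were not of one kind. When all E60 cells were clustered without the 12 rule genes, 41 members fell into a single cluster of 42 cells, and the other 30 were spread over 10 clusters. The same 41 members were together at a lower and at a higher clustering resolution. The genes that led the cluster of 42 cells were MYOG, MYH8, MYH3, ACTC1, MYLPF, JSRP1, VGLL2, MYOD1, FITM1 and PAX7. Of these, MYLPF, JSRP1, VGLL2 and FITM1 are outside the rule, and the others are rule genes that chose the members. The cluster is called skeletal muscle-like below. Its 1 cell outside the rule had 2 rule genes, with 26 UMIs of ACTC1 and 2 of TNNT1. Of the 30 members elsewhere, 7 were in a cluster led by GAL, ITGA7, MYLK and RGS16, and 6 were in a cluster led by CCL11, MGP and WFIKKN2.

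Cells at the threshold lay mostly outside the cluster. At the threshold, 20 cells had exactly 3 rule genes and 200 cells had exactly 2, and 2 of the former and 1 of the latter were in the cluster. ACTC1 summed to 967 CPM (counts per 1000000 UMIs) in cells with 3 rule genes and 204 CPM in cells with 2. For MYLPF, a fast skeletal myosin light chain that the rule did not use, the values were 329 CPM and 19.1 CPM. DES was at 175 CPM in cells with 3 rule genes and at 178 CPM in cells with 2. From 4 rule genes on, 39 of 51 cells were in the cluster.

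**Figure D1:**
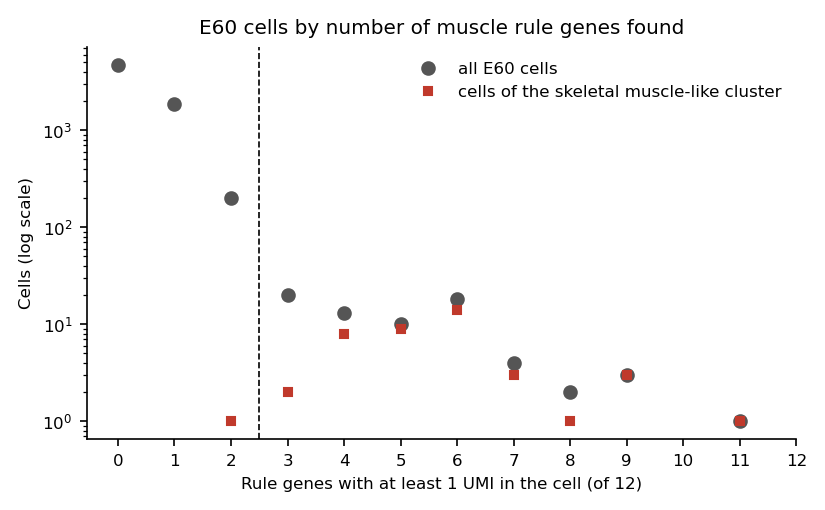
Number of E60 cells (log axis) against the number of the 12 rule genes found in the cell, for all E60 cells (grey circles) and for cells of the skeletal muscle-like cluster (red squares); empty classes are not drawn. The dashed line marks the threshold of 3 genes, next to which 20 cells lay just inside and 200 just outside.

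The regulators of the lineage were concentrated in the cluster. All 41 cluster members had at least 1 UMI of PAX7, MYF5, MYOD1 or MYOG, compared with 9 of the 30 members outside. Of the 5 markers of the label, MYOD1, MYOG, DES, ACTC1 and MYH3 were all found in both sets of members, but most members outside lacked every regulator and are called only by the rule. PAX7, which marks muscle precursors, was found in 27 cluster members and 2 members outside, and in 9 non-members with 1 UMI each. MYF5 was found in 21 cluster members, 1 member outside and 2 non-members. MYOD1 was found in 31 cluster members, 4 members outside and 7 non-members, and its highest count in a cell was 9 UMIs.

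MYOG was the regulator with the widest range. Members held 660 of the 687 MYOG UMIs of the E60 library, and the 27 others lay in 27 different cells, 1 in each. In the cluster 19 cells had MYOG, and their counts reached 121 UMIs in 1 cell, whereas the 6 MYOG-positive members outside had 1 to 17 UMIs. The non-member share with a MYOG UMI was 0.398%, and it was 1.82% (exact interval 0.22% to 6.41%) in the cluster of 110 cells led by myeloid genes, a type that should lack it. The median depth of that cluster was 8753 UMIs. In 116 non-members of the cluster with the highest level of endothelial markers, with a median of 16144.5 UMIs, 0 cells had MYOG. The origin of the single MYOG UMIs of non-members was not tested.

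Precursor and differentiation regulators overlapped only in part within the cluster. Of its 41 members, 21 had PAX7 or MYF5 without MYOG, 11 had MYOG without either, and 17 had both MYOD1 and MYOG. MYOD1 was present on both sides: 14 cells had it without MYOG, and 2 cells had MYOG without MYOD1. PAX7 and MYF5 were found together in 19 cells. PAX7 and MYOG were found together in 7 cells, and MYF5 and MYOG in 3.

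**Figure D2:**
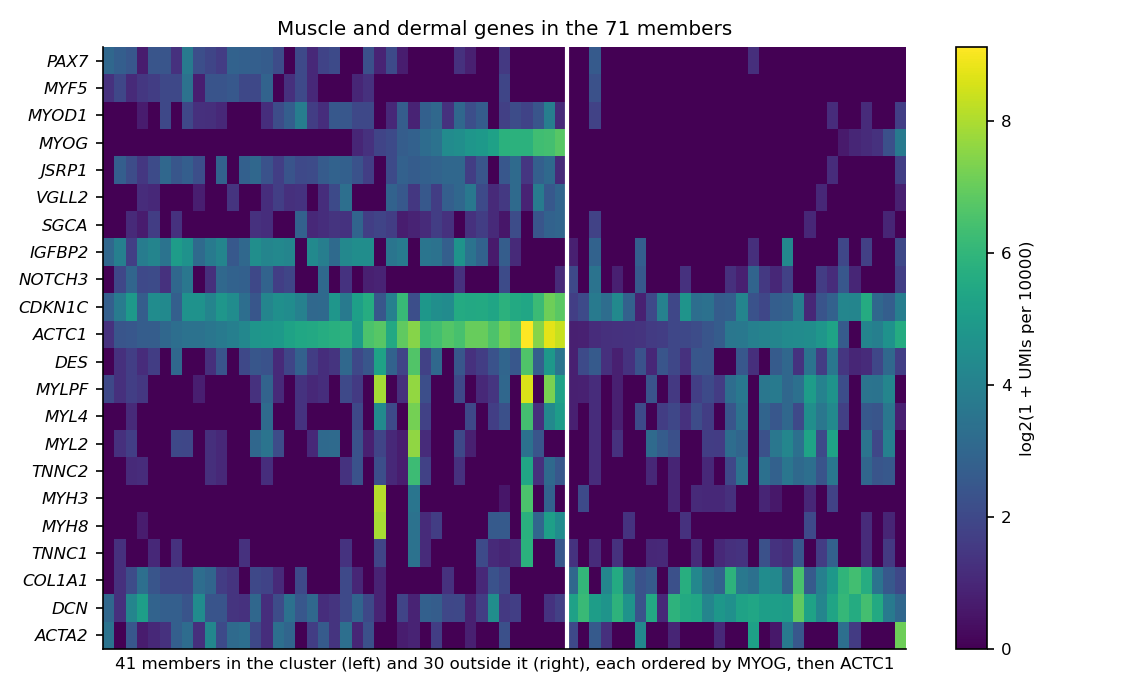
Level of regulators, muscle genes and dermal genes (rows) in each of the 71 members (columns), as log2 of 1 plus UMIs per 10000 UMIs of the cell. The 41 cluster members stand left of the white line and the 30 others right of it, each ordered by MYOG and then ACTC1; PAX7 and MYF5 lie mostly left of the MYOG-positive cells, and COL1A1 and DCN are highest on the right.

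Of the rule genes, DES and ACTC1 were found in the largest shares of non-members. This did not hold for all contractile genes of the rule: MYH8 was in 0.28% of non-members and MYOG in 0.398%. ACTC1 was found in 70 of the 71 members, in 6.2% of non-members and in 6.36% of the myeloid-led cells. Of the 420 non-members with ACTC1, 371 had 1 UMI, and the highest count was 96 UMIs. The origin of these UMIs was not tested. In cluster members ACTC1 ranged from 1.5 to 557 UMIs per 10000 with a median of 44.8, and in members outside from 0 to 47.8 with a median of 5.2. The 2 ranges overlapped, but the median of the cluster was near the top of the other range. DES, the intermediate filament of muscle, was found in 87.3% of members and in 24.7% of non-members, and members held 14.4% of its UMIs. DES is also expressed in smooth muscle and pericytes.

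Myosin heavy chains were present in few members. MYH3 was found in 5 cluster members with 433 UMIs and in 10 members outside with 14 UMIs. MYH8 was found in 11 cluster members with 414 UMIs and in 5 members outside with 7 UMIs. A single cell held 309 of the MYH3 UMIs and 272 of the MYH8 UMIs. KLHL41, a sarcomere assembly factor, was found in 13 cluster members and 5 outside. CHRNA1, a subunit of the acetylcholine receptor, was found in 3 cluster members with 1 UMI each.

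Members were compared with the other E60 cells over all genes outside the rule. A gene was counted as higher or lower when its CPM plus 1 differed at least 4-fold and reached 100 CPM in the higher group. Of 1207 genes compared, 39 were higher (3.23%) and 11 lower (0.911%) in members. With cluster members alone, 70 of 1292 genes were higher (5.42%) and 108 lower (8.36%), and with members outside the cluster alone, 18 of 1180 were higher (1.53%) and 4 lower (0.339%). The numbers thus depended on which members were summed, and values are given for both below. Since the rule and the clustering chose these cells by genes expressed with them, the differences describe the cells and show nothing independent of that choice. At a minimum of 10 CPM, 181 of 5634 genes were higher (3.21%) and 51 lower (0.905%) in members.

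The 12 genes with the largest ratio were MYLPF, JSRP1, MYL2, TNNC2, CKM, VGLL2, MYOZ2, MYL4, FITM1, CRYAB, CAMK2B and CA3. MYLPF stood at 1896 CPM in members and 2.77 CPM in the other cells, a 686-fold difference (exact interval 586 to 806). Its level was 2895 CPM in cluster members, 630 CPM in members outside and 113 CPM in precursors of the cluster. JSRP1, a protein of the junctional sarcoplasmic reticulum, stood at 225 CPM in members and 0.23 CPM in the other cells. Unlike MYLPF, JSRP1 was nearly all in the cluster: 36 of 41 cluster members had it, with a median of 4.2 and a highest value of 7.9 UMIs per 10000, and 2 of 30 members outside did.

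MYOZ2, a Z-disc protein that binds calcineurin, was at 245 CPM in the cluster, 121 CPM outside and 0.67 CPM in the other cells. CRYAB, a small heat shock protein abundant in muscle, was at 337 CPM in all members and 2.3 CPM in the other cells. CAMK2B, a subunit of a calmodulin-dependent kinase, was at 154 CPM and 0.54 CPM, and CA3, the carbonic anhydrase of slow muscle, at 193 CPM and 1.07 CPM.

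Between cluster members and members outside, 44 of 1297 genes were higher (3.39%) and 100 lower (7.71%) in the cluster. MYL2, the slow and cardiac regulatory light chain, was at 737 CPM in the cluster and 601 CPM outside, 1.23-fold apart (1.02 to 1.48). TNNC2, the fast skeletal troponin C, was at 420 CPM and 297 CPM, and CKM, muscle creatine kinase, at 265 CPM and 193 CPM. By contrast, VGLL2, a skeletal muscle cofactor of TEAD transcription factors, was at 258 CPM in the cluster and 6.53 CPM outside, 39.4-fold apart (10.6 to 330.2). FITM1, a lipid droplet protein of muscle, was 35.8-fold apart (12 to 176) and JSRP1 30-fold (11.5 to 111). JSRP1, VGLL2 and FITM1 were thus far lower in members outside the cluster, at 13.1 CPM, 6.53 CPM and 9.8 CPM. In the other E60 cells they were lower still, at 0.23 CPM, 0.12 CPM and 0.9 CPM. Of the 4 UMIs of JSRP1 in members outside, 3 were in 1 cell.

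The contractile sums of the cluster rested on a few cells. A single cluster member held 221 of the 286 UMIs of MYL2 in the cluster, 85 of 163 of TNNC2 and 79 of 103 of CKM. Without the 3 members that had the highest sarcomere counts, MYL2 was at 144 CPM in the cluster, 0.24-fold of its level outside (0.172 to 0.328), and TNNC2 was at 73.4 CPM, 0.247-fold (0.153 to 0.386). MYLPF was then at 514 CPM, 0.815-fold of its level outside (0.662 to 1.004). The order of the 2 sets of members was thus turned for MYL2 and TNNC2, and for MYLPF the interval included 1. It was also turned for CKM at 45.2 CPM, 0.234-fold of its level outside (0.126 to 0.413). The same held for MYOZ2 at 56.5 CPM, 0.467-fold (0.257 to 0.826), and MYL4 at 206 CPM, 0.485-fold (0.359 to 0.652). No cell was left out of the members outside, so these ratios are trimmed on one side only. A single cell outside held 38 of the 184 UMIs of MYL2 there and 32 of the 193 of MYLPF. JSRP1 at 31.1-fold (11.9 to 116) and VGLL2 at 41.9-fold (11.3 to 351) above members outside did not rest on the 3 cells. Against the other E60 cells, 57 genes were then higher and 105 lower in the cluster, beside 70 and 108 of 1292 with all its members. The median log2 ratio over all genes compared was 0.08 without the 3 cells.

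**Figure D3:**
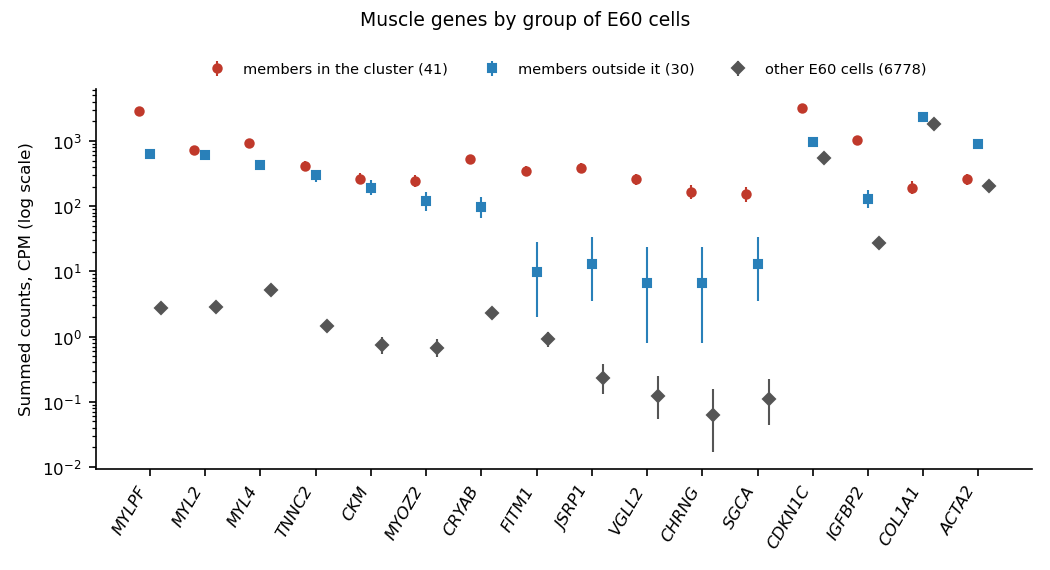
Summed counts in CPM (log axis) of 16 genes in cluster members, members outside the cluster and the other E60 cells, with exact Poisson 95% intervals. The light chains, TNNC2, CKM and MYOZ2 are far above the other cells in both sets of members, and COL1A1 is low in the cluster. FITM1, JSRP1, VGLL2, CHRNG and SGCA are highest in the cluster, with members outside between it and the other cells.

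The 6 genes with the smallest ratio were HBAII, CCL21, HBAI, SPON2, GDF10 and CADM3. The alpha-globins HBAII and HBAI were 23.7-fold (10.9 to 64.5) and 12.5-fold (8.88 to 18.1) lower in members, and CCL21, a chemokine of lymphatic vessels, 14.5-fold lower (7.05 to 36.2). SPON2 was at 34.6 CPM in members and 204 CPM elsewhere. In the cluster alone, the 6 smallest ratios were those of COL11A1, MFAP5, HBAII, CADM3, IGFBP7 and ASPN. The fibrillar collagen COL11A1 was 36.9-fold lower (10.2 to 304) and the microfibril protein MFAP5 29.1-fold (11.4 to 107). COL1A1, the main collagen of dermis and not among these 6, was 9.41-fold lower (7.5 to 12). In members outside the cluster COL1A1 was at 2371 CPM, against 1817 CPM in the other E60 cells.

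Of 11 skeletal muscle markers outside the rule that were in the table, 3 reached 100 CPM in members, namely MYL4, MYLPF and VGLL2, and all 3 were higher. In cluster members TNNI1, the slow troponin I, and CHRNG also reached it, and 5 of 5 were higher. The sum of the list was 4490 CPM in cluster members, 1104 CPM in members outside and 18.3 CPM in the other cells. Without the 3 members of highest sarcomere counts it was 1239 CPM (1126 to 1361) in the cluster, and its interval overlapped that of the members outside (989 to 1228). Of 38 sarcomere genes in the table, 11 were compared and 8 were higher in members, with a median log2 ratio of 5.93 against -0.01 over all genes compared. In the cluster 10 of 12 were higher, with a median of 5.42 against 0.04. NEB, the giant thin filament protein, was at 407 CPM in the cluster, 19.6 CPM outside and 2.89 CPM in the other cells. The sum of the sarcomere list was 8073 CPM in the cluster, 3879 CPM outside and 1090 CPM in the other cells. Its median over single cells was 2011 CPM in the cluster and 3086 CPM outside. Without the 3 members of highest sarcomere counts the sum in the cluster was 2789 CPM, and 4 of 7 genes compared were higher than in the other cells, namely MYL2, MYL4, MYLPF and NEB.

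Among the determination factors outside the rule, VGLL2 was higher in the cluster, as given above. MYF6 was found with 12 UMIs in cluster members and 0 in members outside. MEF2C, a partner of the myogenic factors, was at 165 CPM in the cluster and 147 CPM in the other cells.

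Of 3 precursor cell genes compared, the surface proteins ITGA7 and CD82 were higher in the cluster. ITGA7, the laminin receptor of muscle, was at 219 CPM in the cluster, 84.9 CPM outside and 13.8 CPM in other cells. The tetraspanin CD82 was at 283 CPM, 35.9 CPM and 19.2 CPM. FGFR4, a fibroblast growth factor receptor of myoblasts, was at 87.6 CPM in the cluster and 0.19 CPM in the other cells, below the 100 CPM needed to be counted. SGCA, a dystrophin-associated sarcoglycan, was at 152 CPM, 13.1 CPM and 0.11 CPM. The fetal acetylcholine receptor subunit CHRNG was at 165 CPM, 6.53 CPM and 0.06 CPM.

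Further muscle lists were described in cluster members against the other E60 cells. All 3 metabolic genes compared were higher: CKM, the brain-type creatine kinase CKB at 131 CPM against 18.1 CPM, and ENO3, the muscle enolase, at 144 CPM against 8.1 CPM. Without the 3 members of highest sarcomere counts, no metabolic gene reached 100 CPM. JSRP1 was the only gene of calcium handling and excitation that reached 100 CPM, and CHRNG the only one of the neuromuscular junction. RAPSN, which anchors acetylcholine receptors, was at 36.1 CPM against 1.03 CPM, below the level needed to be counted. Of the 5 fusion genes measured, 1 reached 100 CPM, and it was not counted as higher. The fusion proteins MYMK and MYMX and the sarcomere genes TTN and ACTA1 were not found under these symbols in the data, so they could not be described.

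Cell cycle genes were present in the cluster, some at levels near those of the other cells and some above them. Of 5 compared, 0 were higher or lower, and TOP2A was at 299 CPM against 279 CPM, a ratio of 1.07 (0.886 to 1.29). MCM7, a helicase subunit, was at 291 CPM against 143 CPM. Without the 3 members of highest sarcomere counts, MCM3 was at 181 CPM against 110 CPM and MCM5 at 192 CPM against 127 CPM. CDKN1C was the member of the cycle exit list that was higher, at 3179 CPM against 549 CPM, 5.79-fold (5.46 to 6.12). IGFBP2 was higher at 1028 CPM against 27.3 CPM, and NOTCH3 was the Notch gene that was higher. In members outside IGFBP2 was at 131 CPM, and NOTCH3 at 157 CPM against 35 CPM in the other cells. Without the 3 members of highest sarcomere counts, the cluster had 8.62-fold (6.22 to 12.3) the IGFBP2 of members outside. For NOTCH3 this was 1.33-fold (0.915 to 1.96), an interval that included 1. IGFBP2 was also among the leading genes of the cluster led by GAL and ITGA7.

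Markers of other cell types differed between the 2 sets of members. The sum of 7 dermal fibroblast markers was 1677 CPM (1551 to 1811) in the cluster, 11416 CPM outside and 11126 CPM in the other E60 cells. In single cells it ranged from 0 to 6297 CPM in the cluster and from 320 to 36615 CPM outside. The sum of 11 mural and smooth muscle markers was 283 CPM in the cluster and 1270 CPM outside, and that of 5 tendon markers 43.8 CPM and 931 CPM. In the other E60 cells these sums were 275 CPM and 531 CPM. Without 1 cell that held 187 UMIs of ACTA2, the mural sum outside was 625 CPM (538 to 723). Markers of endothelial, myeloid, Schwann or glial and epithelial cells were all at 0 in cluster members, and the last 3 kinds also in members outside, which had 31 UMIs of endothelial markers. The 2 alpha-globins were lower in the cluster, as in all members. The cluster of muscle-like cells thus held few dermal counts, whereas members outside it had as many as the other E60 cells. The part of dermal RNA in the values of the members outside was not tested.

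To separate precursors from differentiating cells, members with at least 1 UMI of MYOG, MYH3, MYH8, KLHL41 or CHRNA1 were called differentiating. Members with PAX7, MYF5 or MYOD1 and none of those were called precursors. This gave 20 precursors, 42 differentiating cells and 9 cells of neither kind. Within the cluster there were 18 precursors and 23 differentiating cells, and 0 of neither kind. Outside it, 19 cells met the first condition, of which 10 had MYH3. The values of these 19 speak little for the name: 11 met it by 1 UMI of 1 gene and 12 had no UMI of PAX7, MYF5, MYOD1 or MYOG. In the cluster, 4 of 23 met it by 1 UMI of 1 gene, and none of these had MYOG. A cell called by CHRNA1 had 4 UMIs of PAX7 and 3 of MYF5, and another had 4 and 2. The cell called by MYH8 had 1 of PAX7 and 3 of MYF5. For these cells too the values speak little for the name. The cell called by KLHL41 had 3 UMIs of MYOD1 and neither PAX7 nor MYF5. The cluster precursors had a median of 7155 UMIs and the cluster differentiating cells of 9435, so a cell of the second group had more chances to show a rare gene. In each cell thinned to 6000 UMIs, 62 members remained, of which 21 were precursors and 37 differentiating.

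Over all members, 53 of 1264 genes were higher (4.19%) and 8 lower (0.633%) in differentiating cells than in precursors. At a minimum of 10 CPM the numbers were 489 (8.27%) and 330 (5.58%) of 5913 genes. The 8 largest ratios were those of SMPX, S100A4, ABCC8, COL24A1, MFAP5, ASPN, MYLPF and CCL11. Of these, S100A4, COL24A1, MFAP5, ASPN and CCL11 came from members outside the cluster. In the cluster S100A4 was at 0 UMIs in both kinds of cell, and MFAP5 was at 12.2 CPM in differentiating cells and 7.05 CPM in precursors. The comparison below is therefore given within the cluster, where 40 of 1239 genes were higher (3.23%) and 11 lower (0.888%). The division used MYOG and contractile genes, so genes expressed with them were likely to differ. These differences describe the groups and show nothing independent of the division.

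Contractile genes were prominent among those higher in differentiating cells of the cluster, whose 8 largest ratios were those of SMPX, ABCC8, FILIP1, ACTN2, SORBS2, MYLPF, MYL4 and CRYAB. MYLPF was at 4499 CPM in the 23 differentiating cells and 113 CPM in the 18 precursors, 39.9-fold apart (24.5 to 70.1). MYL4, the embryonic and atrial light chain, was 25.2-fold higher (12.7 to 58.9) and TNNC2 22.9-fold (8.77 to 85.1). ACTN2, the sarcomeric alpha-actinin, was at 150 CPM against 0 UMIs, at least 7.11-fold higher with a floor of 3 counts in the precursors' sum. SMPX, a small muscle protein, was at least 9.41-fold higher and ABCC8, a sulfonylurea receptor subunit, at least 9.22-fold. Of 13 sarcomere genes compared, 9 were higher and 0 lower, with a median log2 ratio of 4.08 against -0.08 over all genes compared. Of the metabolic list CKM, CKB and ENO3 were compared and all 3 were higher. Among determination factors VGLL2 was 5.83-fold higher (2.94 to 13.2) and MEF2C 6.8-fold (2.76 to 21.7), 2 of 4 compared.

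Most of this contractile RNA came from a few cells. The 3 cells with the highest sarcomere counts held 68.5% of the sarcomere counts of the cluster and 8.76% of its UMIs. The first had 309 UMIs of MYH3, 272 of MYH8 and 265 of MYLPF, and 50.5% of its counts were mitochondrial. The second had 112 UMIs of DES, 70 of TNNT1, 225 of MYLPF, 167 of MYL4 and 221 of MYL2, and 0.071% of its counts were mitochondrial. The third had 641 UMIs of ACTC1, 111 of DES, 107 of MYH3 and 452 of MYLPF, with 4.8% mitochondrial counts. The part of RNA quality in these cells was not tested.

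Without these 3 cells, the contractile difference was smaller. In the other 20 differentiating cells of the cluster MYLPF was at 782 CPM (668 to 910). In them 21 genes were at least 4-fold higher than in precursors, beside 40 of 1239 with all 23 cells. The median log2 ratio over all genes compared was -0.02 without the 3 cells. TNNT3, the fast troponin T, was then at 9.42 CPM against 14.1 CPM in precursors, and MYL2 was at 65.9 CPM against 261 CPM. Of 8 sarcomere genes compared 2 were then higher, MYL4 and MYLPF, and of the metabolic genes CKB alone reached 100 CPM and was higher. CKM was at 51.8 CPM against 35.2 CPM. SMPX was left with 5 UMIs, 23.6 CPM, and SORBS2 with 0 UMIs. MCM5 was at 89.5 CPM against 345 CPM, 3.86-fold lower (2.23 to 6.94) and so just under the 4-fold limit. ABCC8 was at 217 CPM against 0 UMIs, and VGLL2 at 415 CPM against 63.4 CPM. ACTC1, a rule gene that the division did not use, was at 10683 CPM against 2163 CPM in precursors. CDKN1C, which inhibits cyclin-dependent kinases, was at 4414 CPM against 1698 CPM.

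**Figure D4:**
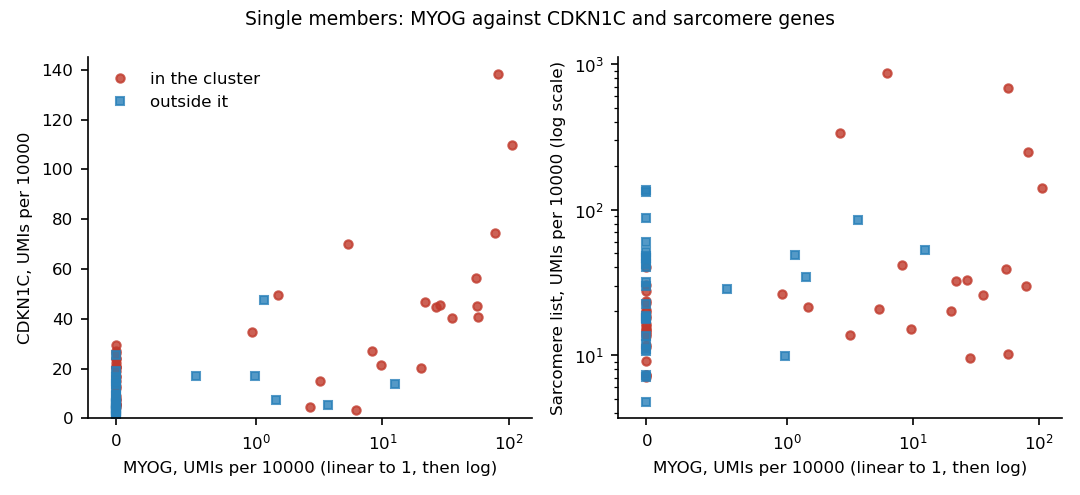
CDKN1C (left) and the sum of the sarcomere list (right, log axis) against MYOG in each of the 71 members, all in UMIs per 10000 UMIs of the cell; the MYOG axis is linear to 1 and logarithmic above. Cluster members are red circles and members outside blue squares; CDKN1C is highest in the cells with most MYOG, and 3 cluster members stand far above the others in sarcomere counts.

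Few genes were lower in differentiating cells of the cluster. MCM5, a subunit of the replicative helicase, was 4.48-fold lower (2.59 to 8.05), at 77.1 CPM against 345 CPM. NT5C, a nucleotidase, was 7.37-fold lower (2.41 to 30.1) and DTYMK, which makes thymidine diphosphate, 5.78-fold (2.24 to 17.6). GBP5, EFHD1, NECTIN1, ADIRF and SRPK1 completed the 8 smallest ratios. Of 5 cell cycle genes compared, MCM5 was lower and 0 were higher. TOP2A, a topoisomerase of dividing cells, was at 325 CPM in differentiating cells and 254 CPM in precursors, and its ratio of 1.28 had an interval (0.854 to 1.95) that included 1. The cell cycle genes thus did not all lie on one side.

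Over all members the 8 smallest ratios were those of NECTIN1, DBX1, RGS10, SPARCL1, NT5C, EFHD1, NOTCH3 and ANKRD50. DBX1, a homeodomain factor, was 5.35-fold lower (3.12 to 9.42) in differentiating cells, and members held 64 of its UMIs against 8 in all other E60 cells. NOTCH3, a receptor of the Notch pathway that holds precursors undifferentiated, was at 359 CPM in precursors of the cluster and 97.4 CPM in its differentiating cells, 3.69-fold lower (2.23 to 6.26). This was just under the 4-fold limit, and the gene was the only 1 of 10 Notch genes in the table that reached 100 CPM.

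MYOG counts ordered the cluster in a finer way. Its members were divided into 22 cells without MYOG, 8 cells with 1 to 9 UMIs and 11 cells with 10 or more. These classes were chosen after the values had been seen. CDKN1C was at 1606 CPM, 3090 CPM and 5623 CPM in the 3 classes, and the exact intervals did not overlap. The middle class held the cells with 977 and 377 sarcomere UMIs, which had 4 and 5 UMIs of CDKN1C. ACTC1 was at 2038 CPM, 9361 CPM and 19599 CPM, and VGLL2 at 105 CPM, 238 CPM and 503 CPM. For VGLL2 the intervals of the first and the last class were separate, and that of the middle class overlapped the first.

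In the opposite direction, PAX7 was at 366 CPM in cells without MYOG, 113 CPM in the middle class and 50.3 CPM in the highest. MCM5 was at 299 CPM, 113 CPM and 33.5 CPM. For both genes the first class lay above the others, whose intervals overlapped. IGFBP2, a binding protein of insulin-like growth factors, was at 1363 CPM, 1109 CPM and 461 CPM, with overlapping intervals for the first 2 classes. The cells with 977 and 377 sarcomere UMIs, both in the middle class, had 0 UMIs of IGFBP2 each. No order of the first 2 classes is therefore read for IGFBP2. JSRP1 was at 388 CPM, 407 CPM and 385 CPM, within counting error in all 3 classes. No difference of JSRP1 between cluster cells with and without MYOG was detectable at this depth.

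**Figure D5:**
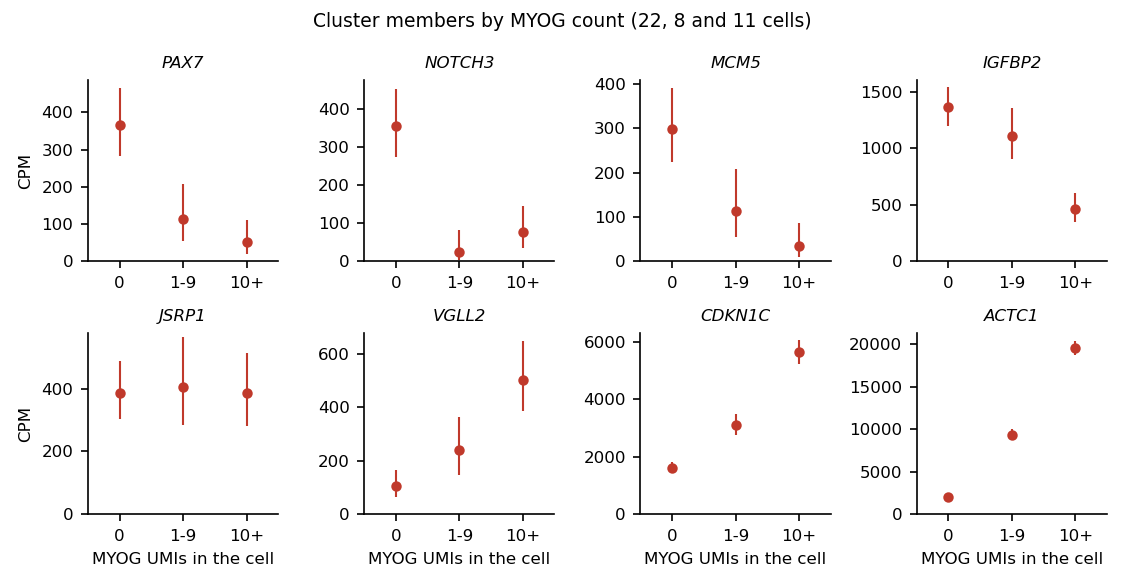
Summed counts in CPM of 8 genes in cluster members with 0, 1 to 9 and 10 or more MYOG UMIs (22, 8 and 11 cells), with exact Poisson 95% intervals. PAX7, NOTCH3 and MCM5 are highest in cells without MYOG, and VGLL2, CDKN1C and ACTC1 in cells with 10 or more. IGFBP2 is lowest in cells with 10 or more, and JSRP1 is level.

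Across the 41 cluster members, the Spearman correlation of MYOG per 10000 UMIs with ACTC1 was 0.866, with CDKN1C 0.66, with PAX7 -0.688 and with IGFBP2 -0.521. With the sum of sarcomere genes it was 0.493. These correlations are descriptions over cells of 1 library that share its chemistry and pooled fetuses. The 3 cells with the highest sarcomere counts, 977, 792 and 377 UMIs of the list, had 7, 66 and 3 UMIs of MYOG. The next in the cluster had 159 with 53 UMIs of MYOG and 124 with 93, and the cell with 121 UMIs of MYOG had 1 of MYH3. High sarcomere counts thus occurred with few and with many MYOG UMIs.

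The 30 members outside the cluster had contractile RNA with few counts of the regulators. ACTC1 was found in 29 of them, MYL4 in 23, MYLPF in 22, MYL2 in 19 and TNNC2 in 16. MYLPF was at 630 CPM (544 to 726), 228-fold above the other E60 cells (185 to 281). CDKN1C was at 973 CPM against 549 CPM in the other cells, and MYF6, RAPSN and CDH15 were at 0 UMIs. Their ACTC1 and sarcomere counts per 10000 UMIs went together across cells, with a Spearman correlation of 0.855 over 30 cells.

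Outside the cluster the muscle genes stood in other proportions to each other. For every 100 UMIs of ACTC1, members in the cluster had 31.8 of MYLPF, 8.09 of MYL2, 12.3 of MYH3 and 4.3 of JSRP1. Members outside had 55.9, 53.3, 4.06 and 1.16, and the other E60 cells had 24.4, 24.7, 4.39 and 2.06. Without the 3 cells of highest sarcomere counts, members in the cluster had 7.07 of MYLPF, 1.98 of MYL2, 0.194 of MYH3 and 5.59 of JSRP1, so that MYH3 lay below the proportion outside instead of above it. The myeloid-led cells had 8 UMIs of ACTC1, 6 of MYLPF and 4 of MYL2 in all, too few for such a ratio. MYLPF was found in 73.3% of members outside, in 2.26% of non-members and in 5.45% (2.03% to 11.5%) of myeloid-led cells. Of the 30 cells, 3 were among those with the highest doublet scores, as were 5 of the 41 cluster members and 429 of the other E60 cells. The part of free RNA and of doublets in these counts was not tested.

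A pair of members outside stood apart from the rest. The cell with 17 UMIs of MYOG had 3 of MYOD1, 65 of ACTC1 and 187 of ACTA2, the smooth muscle actin. A precursor had 4 UMIs of PAX7, 3 of MYF5 and 2 of MYOD1 with 26 of DCN. Both were chosen after their values had been seen. Genes 4-fold higher in the 30 members than in the other E60 cells included CCL11 at 238 CPM, RGS16 at 127 CPM, MEOX2 at 336 CPM and ACTA2 at 914 CPM. CCL11 and RGS16 were also among the leading genes of the clusters that held 6 and 7 of the 30. Of the 280 UMIs of ACTA2 in these members, 187 were in the cell with 17 UMIs of MYOG.

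The genes most like MYOG were sought by the share of their positive E60 cells that also had MYOG, among genes in at least 10 cells. PRR32 led with 13 of 22 cells (59.1%), then SHD with 10 of 17 (58.8%) and CHRNG with 14 of 25 (56%). LMOD2, a thin filament nucleator, UNC45B, a myosin chaperone, and CACNG1, a subunit of the muscle calcium channel, followed with 5 of 10, 8 of 16 and 6 of 12 cells, each 50%. Of the CHRNG-positive cells, 19 were in the cluster.

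At the later stages no cell met the rule. There were 0 members among 6931 cells at E90, which allows a share of up to 0.0433% when 3 cells are taken as the most that a count of 0 allows, and 0 among 6896 cells at E120, which allows up to 0.0435%. The exact binomial upper limits were 0.0532% and 0.0535%. MYOD1, MYF5, MYOG, MYH8, PAX7 and CHRNA1 had 0 UMIs in both libraries. With every cell thinned to 2000 UMIs, 41 cells met the rule at E60 and 0 at either later stage. At E120 the follicles had been dissected out of the skin, so stage and dissection cannot be told apart there, and 1 library a stage does not separate a stage from its sample.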

How the data were processed

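Single-cell libraries (10x Genomics, 3′ ends) were processed with Cell Ranger 3.0.2, per the submitters' processing notes; the genome build and the filters on cells are not given in the sources used here. The authors deposited 1 table of natural log (ln) values for 16739 genes and 20676 cells. Its values were ln of 1 plus counts scaled to 10000 per cell, as the values show: 100% of nonzero values were whole multiples of the smallest nonzero value of their cell, within 0.01. UMI counts were recovered by that inversion, which takes the smallest value as 1 UMI. The plan had named counts as the unit. E60 cells were assigned by the prefix of their names.

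Counts were summed over groups of cells and given as CPM with exact Poisson intervals, ratios with exact conditional intervals and shares with Clopper-Pearson intervals, all at 95%. A log2 ratio is of CPM plus 1. Without replicates no test was made. E60 cells were clustered without the rule genes (scanpy 1.11.5, 2000 variable genes, 30 components, 20 neighbours, leidenalg 0.10.2 at resolution 1). Scrublet marked 3 of 6849 E60 cells (0.044%), so it did not work; no cell was removed. The comparison was tested on simulated data.

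Named were the 12 rule genes, the 12 largest and 6 smallest ratios of members over other cells, the 8 largest and 8 smallest of differentiating cells over precursors, also within the cluster, for which as for members outside it the same numbers were listed, and the 5 genes most like MYOG, where a tie at the last place gave 6. Other genes named belong to the lists or were chosen after their values were seen. The members, gene lists and marker lists were chosen with earlier results of these data known. Closely related genes, such as myosins, could share reads, and the counting of such reads is not given in the sources used here. Alternatives varied the rule, the depth, the doublets, the scaling, the pseudocount and the minimum level. Not every determination factor in the table is reported here.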

Additional observations from a re-analysis of the deposited data

Results flagged for a closer look

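Contractile rule genes had UMIs in the E90 and E120 libraries, which the comparisons above do not use, although no cell there met the rule. At E90 the sums were 343 UMIs of DES, 68 of TNNT1, 21 of ACTC1, 14 of MYH3, 4 of TNNC1 and 4 of KLHL41. The highest count in a cell was 7 for DES and 2 for ACTC1. At E120 they were 568 UMIs of TNNT1 in 475 cells, 453 of MYH3 in 389 cells, 112 of DES in 70 cells, 7 of KLHL41 and 4 of ACTC1. The highest count in an E120 cell was 4 for MYH3 and 6 for TNNT1. MYH3 was thus in 5.64% of E120 cells and in 0.672% of E60 cells, with median depths of 13064 and 8579 UMIs. Its sum was 4.85 CPM at E120 and 7.36 CPM at E60. Members held 447 of its 479 UMIs at E60, with 309 in 1 cell. In the other E60 cells it was at 0.497 CPM and in 0.457% of cells, below E120 in both measures. Stage and dissection cannot be told apart here, and the cause was not tested. MYOG and MYH8 were at 0 UMIs at E120. No group had enough libraries for a check of outlying samples.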

How the results depend on the processing

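The count of 71 members became 271 with at least 2 rule genes and 41 in the skeletal muscle-like cluster, at each of 3 clustering resolutions. Other settings left 50 to 71 members. The 42 differentiating cells became 20 when 2 genes were asked for, 25 when divided by MYOG and 23 in the cluster. The 39 higher genes became 12 with at least 2 rule genes, 181 at a minimum of 10 CPM, 70 in the cluster and 18 outside it. The 11 lower genes became 3 with at least 2 rule genes, 32 with at least 4, 56 with a regulator of the lineage, 51 at a minimum of 10 CPM, 108 in the cluster, 105 there without the 3 cells of highest sarcomere counts, 4 outside it and 20 when cells in the top 6% of doublet scores were dropped. The 53 genes higher in differentiating cells became 32 when 2 genes were asked for, 21 in the cluster without those 3 cells and 489 at a minimum of 10 CPM. The 8 lower genes became 4 with a pseudocount of 10 CPM, 14 when the cells of top doublet scores were dropped and 330 at a minimum of 10 CPM. Of single genes over other cells, CCL21 turned to 0.43 (log2) with at least 2 rule genes and CCL11 to -2.72 in the cluster (-2.63 without the 3 cells). Of differentiating cells over precursors, S100A4 turned to -7.70 when 2 genes were asked for, CCL11 to -0.44 when divided by MYOG and to -3.01 in the cluster with or without its 3 cells, and TNNT3 to -0.53 without those 3 cells. The causes were not tested. The doublet scores, the other resolutions, the cluster beyond the count of its members, the members outside it, the 3 cells and the 10 CPM minimum for differentiating cells were chosen after seeing the data. No paired analysis was possible because each stage was 1 library, and no replicate could be left out. Counts limit genes under about 100 CPM in precursors, where 3 UMIs were 21.1 CPM in the cluster.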
